A study of Homo sapiens with 4 samples.

Results

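The lysosomal genes described here are 37 genes chosen by name from the deposited table of 56657 rows, each found in exactly 1 row. They are the transcription factors TFEB and TFE3, 15 genes of the vacuolar proton pump (V-ATPase), 6 genes of lysosomal membrane and cholesterol-handling proteins, and 14 genes of hydrolases and their activators. RNA was sequenced from TE5 cells, an established esophageal squamous cell carcinoma line. The control group (shControl, n = 2 libraries) carried a control short hairpin RNA and is labelled wild type. The knockdown group (shNUP153, n = 2) carried hairpin RNA against NUP153, a nucleoporin of the nuclear basket. Hairpins came by lentivirus in both groups, infected cells were selected with puromycin, and the labels give day 7, counted after selection. In bulk RNA, fewer cells of a type and less RNA per cell cannot be told apart. Library descriptions end in g1 and g2 for shNUP153. The sources used here do not say if g1 and g2 are separate hairpins, or if replicates came from separate cultures. P-values therefore reflect the spread of these 4 libraries alone, and that spread may be technical. Effects of hairpins on other targets cannot be told apart from effects of less NUP153.

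Lysosomes are the acidic compartments in which cells break down proteins, glycans and lipids. The V-ATPase acidifies them: its cytosolic V1 sector hydrolyses ATP and drives proton flow through the membrane-embedded V0 sector. Soluble hydrolases reach the lysosome largely by the mannose 6-phosphate route and work at its low pH. TFEB and TFE3 are known to activate many of these genes through an extended E-box in their promoters, and mTORC1 kinase on the lysosome surface holds both factors in the cytosol when nutrients are plentiful.

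Because TFEB and TFE3 are known to act through the extended E-box, promoters were searched for it first. RefSeq promoter windows on GRCh38.p14, from 250 bases before to 50 bases after a gene's start, were at hand for 28 of the 37 genes, matched by symbol. Of these, 22 had 1 window and 6 had more, and a gene was counted where any of its windows held the motif. The motif searched was TCACGTG on either strand, which is the E-box CACGTG with 1 flanking base. Its palindromic form TCACGTGA counts as a match on both strands. A match to TCACGTG was found in 8 of the 28 genes (28.6%), against 4.49% of all 27305 genes in the table and 7.12% of the 11121 that were also tested here. By window, 3.71% of all 35116 held it. The full TCACGTGA was in 6 of the 28 (21.4%), against 2.11% of the tested genes. The 8 genes were ATP6V0B, ATP6V0D1, ATP6V1G1, LAMP1, MCOLN1, CTSA, CTSD and GAA. The motif is known from lysosomal genes, so the list and the motif are not independent, and its higher share here is background and not a finding. A match describes letters in the window and was not tested as a binding site. The windows below belong to the 3 genes with a match, among those past the expression test, that had the smallest p. They carry the motif in genes of both directions: ATP6V1G1 and MCOLN1 were higher in shNUP153 and GAA was lower. Capitals mark the motif, and each sequence runs 5′ to 3′ on the gene's strand (plus for all 3).

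ATP6V1G1, GRCh38.p14 chr9:114587519-114587818: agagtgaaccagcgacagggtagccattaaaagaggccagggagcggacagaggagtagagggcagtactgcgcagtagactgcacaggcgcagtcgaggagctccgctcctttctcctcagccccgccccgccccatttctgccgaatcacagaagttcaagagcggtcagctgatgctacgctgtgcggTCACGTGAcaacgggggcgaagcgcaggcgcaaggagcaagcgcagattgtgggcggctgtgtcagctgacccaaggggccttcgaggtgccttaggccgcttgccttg

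MCOLN1, GRCh38.p14 chr19:7522374-7522673: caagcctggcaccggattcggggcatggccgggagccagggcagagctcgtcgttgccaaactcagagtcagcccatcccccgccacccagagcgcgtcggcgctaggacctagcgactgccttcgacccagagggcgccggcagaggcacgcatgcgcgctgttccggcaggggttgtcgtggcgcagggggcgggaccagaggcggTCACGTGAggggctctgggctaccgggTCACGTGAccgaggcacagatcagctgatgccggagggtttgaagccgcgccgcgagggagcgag

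GAA, GRCh38.p14 chr17:80101331-80101630: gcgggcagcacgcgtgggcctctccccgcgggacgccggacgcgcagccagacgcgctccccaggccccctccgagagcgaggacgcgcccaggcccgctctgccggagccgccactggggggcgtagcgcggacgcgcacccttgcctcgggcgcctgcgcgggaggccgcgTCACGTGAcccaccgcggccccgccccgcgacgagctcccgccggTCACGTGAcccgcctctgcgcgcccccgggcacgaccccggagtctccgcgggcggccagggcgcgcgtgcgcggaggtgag

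ATP6V1G1 holds 1 match, which begins 59 bases before the start used by the table. MCOLN1 holds 2, beginning 42 and 15 bases before it, and GAA holds 2, at 77 and 32 bases before it. All 5 matches are the full TCACGTGA.

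Libraries held between 22606593 and 27396268 counts. Levels below are CPM, counts scaled to library size after TMM normalization (a factor per library that sets typical genes equal), and a fold change is shNUP153 against shControl in edgeR's fit over 16817 tested genes. The target fell: NUP153 was at 149 and 142 CPM in shControl and at 67.9 and 81.9 CPM in shNUP153 (1.94-fold lower, SE 0.06 on the log2 scale, edgeR adjusted p = 1.051e-14). Of 9 squamous and epithelial markers, 8 were tested, of which 5 were lower and 2 higher in shNUP153. KRT17, KRT19, CDH1 and TP63 were well expressed, at means of 734, 1014, 571 and 248 CPM in shControl and 1245, 1142, 369.9 and 234.5 CPM in shNUP153. KRT17 and KRT19 were the 2 higher, by 1.70-fold and 1.13-fold, and EPCAM (2.02-fold), KRT5 (1.60-fold), CDH1 (1.54-fold), SOX2 (1.27-fold) and KRT6A (1.17-fold) the 5 lower. KRT14, a keratin of basal squamous cells, was near 0 (at most 0.548 CPM). The part of these marker changes in the values below was not tested. Summed levels of 9 macrophage markers were 1.71 to 3.16 CPM and of 4 lymphocyte markers 0.0771 to 0.375 CPM, and AIF1, C1QA and C1QB had no count in any library. Summed levels of 7 fibroblast markers, mostly COL1A1, were 14.8 and 13.6 CPM in shControl and 17.3 and 17.4 CPM in shNUP153, and DCN and LUM had no count.

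With NUP153 reduced, lysosomal genes moved in both directions by small amounts. Several V-ATPase subunit genes, the calcium channel gene MCOLN1 and the saposin precursor gene PSAP were higher, while the lipase gene LIPA, the cathepsin genes CTSH and CTSC and 4 glycosidase genes were lower. All 37 genes passed the filter on low counts. By edgeR's quasi-likelihood test at an adjusted p under 0.05, 11 were higher and 9 lower. The 20 called genes are 54.1% of the 37, where 32.4% of all tested genes were called, 15.0% higher and 17.4% lower. These genes are abundant, however, and abundant genes were called more often: 30 of the 37 fall within the top 3 of 10 abundance bins of equal size, where 17 of the 30 were called (56.7%) against 51.1% of all 5045 genes in those bins. Within these bins 33.3% of the lysosomal genes were higher, against 18.1% of all, and 23.3% were lower, against 33%. The median log2 fold change of the 37 was 0.03, beside 0.0054 over all tested genes. That base is not matched for abundance: in the top 3 bins the medians of all tested genes were −0.0308, −0.038 and −0.0803. For 30 of the 37 genes the shNUP153 libraries lay wholly above (17) or below (13) the shControl libraries, as did 64.4% of all tested genes. Called folds ran from 1.11 to 1.57, and 11 of the 20 were under 1.2-fold.

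The number of calls differed between settings. With an shNUP153 library left out, that group loses its replicate, and fewer of all tested genes were called as well, in both directions. The same holds wherever such counts are given below. Limma without a variance trend called 1 of the 37, LIPA, and 485 of all genes, against 5448 with edgeR. Without shNUP153 replicate 1, 6 were called higher and 5 lower, and without shNUP153 replicate 2, 4 and 5. Leaving limma without a trend aside, 9 genes passed under every alternative tried: ATP6V1G1, NPC1, MCOLN1 and PSAP upward, and CTSC, CTSH, GLA, GLB1 and LIPA downward.

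**Figure D1:**
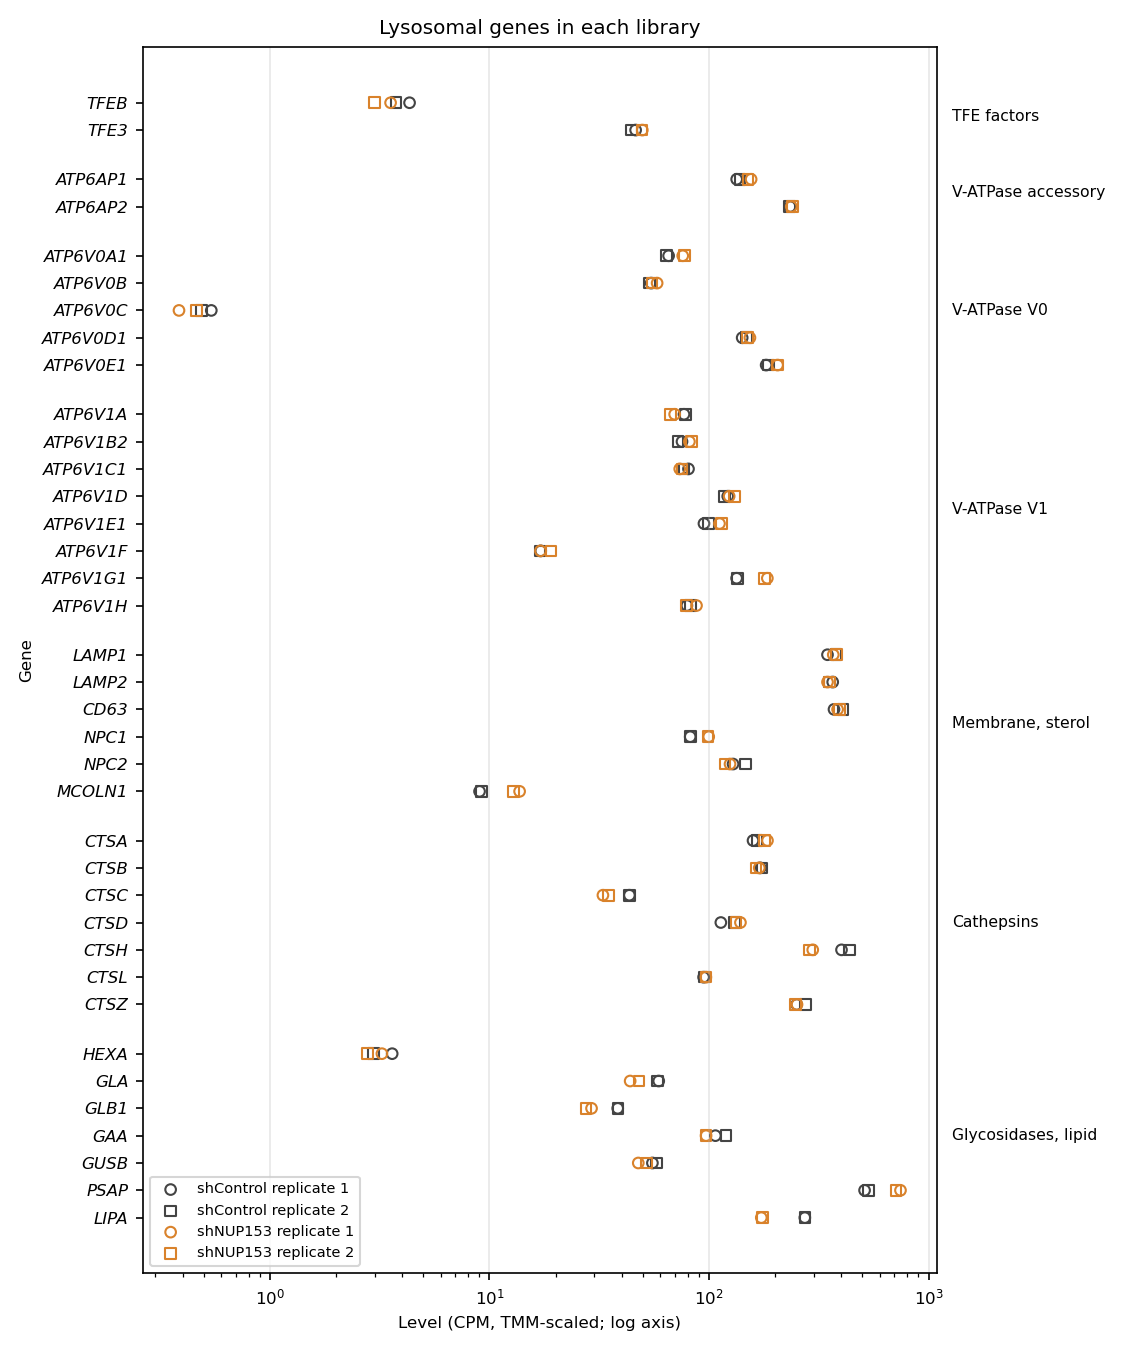
Level of each of the 37 lysosomal genes in the 4 libraries, in CPM on a log axis, with grey symbols for shControl and orange for shNUP153 (circles replicate 1, squares replicate 2), ordered by role. Most genes lie between 10 and 1000 CPM with the libraries close together; ATP6V0C, HEXA and TFEB lie under 5 CPM.

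Both transcription factors were measured, and neither passed the test. TFEB stood at 4.33 and 3.75 CPM in shControl and at 3.55 and 2.99 CPM in shNUP153 (log2 fold change −0.29, SE 0.19, edgeR adjusted p = 0.254). The shNUP153 libraries lay below the shControl libraries, on 71 to 100 counts per library. TFE3 was at 46.3 and 44.3 CPM in shControl and at 49.7 and 49.6 CPM in shNUP153 (0.13, SE 0.07, adjusted p = 0.125), and its shNUP153 libraries lay above. TFE3 passed with total-count scaling (0.20, adjusted p = 0.0202) and when only genes with a mean of 5 CPM or more were tested (0.16, adjusted p = 0.0482). Per kilobase of exon TFE3 was the more abundant, at 10.6 against 0.715 CPM per kb in shControl. MITF, a relative of both, was at 41.0 and 38.1 CPM in shControl and 41.9 and 41.7 CPM in shNUP153 (0.08, adjusted p = 0.407). RNA levels do not show where these proteins are in the cell.

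Of the V-ATPase genes, 6 of 15 were higher and 1 lower (40% and 6.67%, against 15.0% and 17.4% of all tested genes and 18.1% and 33% of those in the top 3 abundance bins). Their median log2 fold change was 0.08. The sum over the 15 genes was 1492 and 1503 CPM in shControl and 1636 and 1626 CPM in shNUP153. Leaving out shNUP153 replicate 1 left 3 of these genes higher and 0 lower, and leaving out shNUP153 replicate 2 left 1 and 0. Calls over all tested genes also fell when either of these libraries was left out. With total-count scaling, which moved the median of all tested genes to 0.07, 8 of the V-ATPase genes were higher and 0 lower.

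Among the V1 genes, ATP6V1G1 changed most. It codes for subunit G of the peripheral stalk that holds the ATPase head in place. Its level was 134 and 135 CPM in shControl and 184 and 179.6 CPM in shNUP153, so every knockdown library exceeded every control library. The rise was 1.36-fold (log2 fold change 0.44, SE 0.05, edgeR adjusted p = 5.84e-09). ATP6V1E1, subunit E of the same stalk, rose 1.16-fold, from 94.9 and 99.7 CPM to 112 and 114 CPM (0.21, SE 0.05, adjusted p = 0.00189). The rise of ATP6V1E1 did not pass without shNUP153 replicate 2 (adjusted p = 0.0718).

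The ATPase head itself went opposite ways. ATP6V1A, the catalytic subunit, fell from 76.9 and 78.2 CPM in shControl to 69.8 and 66.7 CPM in shNUP153 (1.14-fold, −0.19, SE 0.06, edgeR adjusted p = 0.0122). ATP6V1B2, the subunit that alternates with it in the head, rose from 75.4 and 72.4 CPM to 81.5 and 83.2 CPM (1.12-fold, 0.16, SE 0.06, adjusted p = 0.0302). In each gene the knockdown libraries stood clear of the controls. Neither call held without shNUP153 replicate 1 (adjusted p = 0.063 for ATP6V1A and 0.156 for ATP6V1B2) or replicate 2 (0.201 and 0.245). That of ATP6V1A was also lost with total-count scaling (0.112). The call for ATP6V1B2 was lost with DESeq2 (0.0934), with no filter on low counts (0.0846) and without shControl replicate 2 (0.151).

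The other V1 genes did not pass: ATP6V1C1 (−0.08), ATP6V1D (0.08), ATP6V1F (0.08) and ATP6V1H (0.04), with adjusted p from 0.232 to 0.617. ATP6V1D, a subunit of the central rotor, passed with total-count scaling (0.15, adjusted p = 0.0264), and ATP6V1H, a regulatory subunit, turned to −0.04 without shNUP153 replicate 1. ATP6V1D overlaps EIF2S1 on the opposite strand by 269 bp of exon and ATP6V1F overlaps KCP by 187 bp. The sources used here do not say whether counting used strand, so reads in such stretches cannot be told apart.

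In the V0 sector, ATP6V0A1 rose. It codes for an isoform of the large membrane subunit through which protons pass, and measured 65.5 and 64.2 CPM in shControl against 76.0 and 77.5 CPM in shNUP153 (1.18-fold, 0.24, SE 0.06, edgeR adjusted p = 0.00116). Without shNUP153 replicate 2 the adjusted p was 0.0528. ATP6V0E1, a small V0 subunit, rose 1.11-fold, from 182 and 186 CPM to 205.5 and 205.2 CPM (0.16, SE 0.05, adjusted p = 0.00971), and was not called without either shNUP153 library (0.127 and 0.112). ATP6V0D1, which couples the V0 ring to the rotor, was at 0.07 (adjusted p = 0.313; 0.0382 with total-count scaling), and ATP6V0B, a subunit of the proteolipid ring, at 0.07 (adjusted p = 0.457). Of the accessory proteins, ATP6AP1 rose 1.12-fold, from 134 and 138 CPM to 156 and 150.5 CPM (0.17, SE 0.05, adjusted p = 0.00814; 0.185 and 0.0601 without shNUP153 replicates 1 and 2). ATP6AP2, the prorenin receptor, differed little, with 234 and 233 CPM in shControl and 237 and 239.5 CPM in shNUP153 (0.03, adjusted p = 0.661).

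ATP6V0C, the main subunit of the proton-carrying ring, was nearly absent from the table, with 12, 13, 10 and 11 counts in the libraries. Per kilobase of exon it stood at 0.343 CPM per kb in shControl, while the other V0 genes stood between 5.92 (ATP6V0A1) and 113 (ATP6V0E1) CPM per kb. In GENCODE v29, AC093525.2 on the same strand covers 862 bp of its exons (57.5%), and that gene was listed at 0 in all libraries. The handling of reads in shared exons is unstated, and its part in the low value was not tested. HEXA was also low, at 66 to 84 counts per library and 0.26 CPM per kb in shControl. Its exons share only 617 bp (4.89%) with AC009690.1 on the same strand, which had at most 1 count. Neither gene passed the test (−0.27, adjusted p = 0.716 for ATP6V0C, and −0.11, adjusted p = 0.718 for HEXA).

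Membrane proteins that mark the lysosome hardly differed. LAMP1 was at 347 and 379.6 CPM in shControl and at 368 and 382 CPM in shNUP153 (0.05, SE 0.05, edgeR adjusted p = 0.492). LAMP2 (−0.04, adjusted p = 0.56) and the tetraspanin gene CD63 (−0.00017, adjusted p = 0.998) also had overlapping groups. The sign of these values changed with the setting: LAMP2 was at 0.03 and CD63 at 0.06 with total-count scaling, and LAMP1 at −0.02 without shControl replicate 1. Sums over the 6 membrane and cholesterol genes were 1304 and 1379.9 CPM in shControl and 1339 and 1361 CPM in shNUP153.

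MCOLN1, the lysosomal calcium release channel TRPML1 and a known TFEB target, had the largest log2 rise of the 37 genes. It went from 9.02 and 9.19 CPM in shControl to 13.7 and 12.9 CPM in shNUP153, with no overlap, with up to 356 counts per library (1.46-fold, 0.55, SE 0.11, edgeR adjusted p = 0.000228). MCOLN1 shares 6 bp of exon with PNPLA6 on the same strand, which rose by 0.27. The cholesterol export pair diverged. NPC1 shares 604 bp of exon (5.98%) with RMC1 and NPC2 103 bp (3.75%) with ISCA2, both on the opposite strand. RMC1 was at 0.13 and ISCA2 at −0.13, and neither was called. The part of shared reads was not tested. NPC1, the membrane transporter, rose from 82.1 and 82.6 CPM to 99.7 and 99.1 CPM (1.21-fold, 0.27, SE 0.05, edgeR adjusted p = 0.000152). NPC2, the soluble protein that hands cholesterol to NPC1, fell from 129 and 147 CPM to 125 and 118 CPM (1.13-fold, −0.18, SE 0.06, adjusted p = 0.0108). Its highest shNUP153 library lay just under its lowest shControl library, and the call was lost with total-count scaling (0.0917) and without shControl replicate 2 (−0.09, adjusted p = 0.242), shNUP153 replicate 1 (0.0583) or shNUP153 replicate 2 (0.224).

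**Figure D2:**
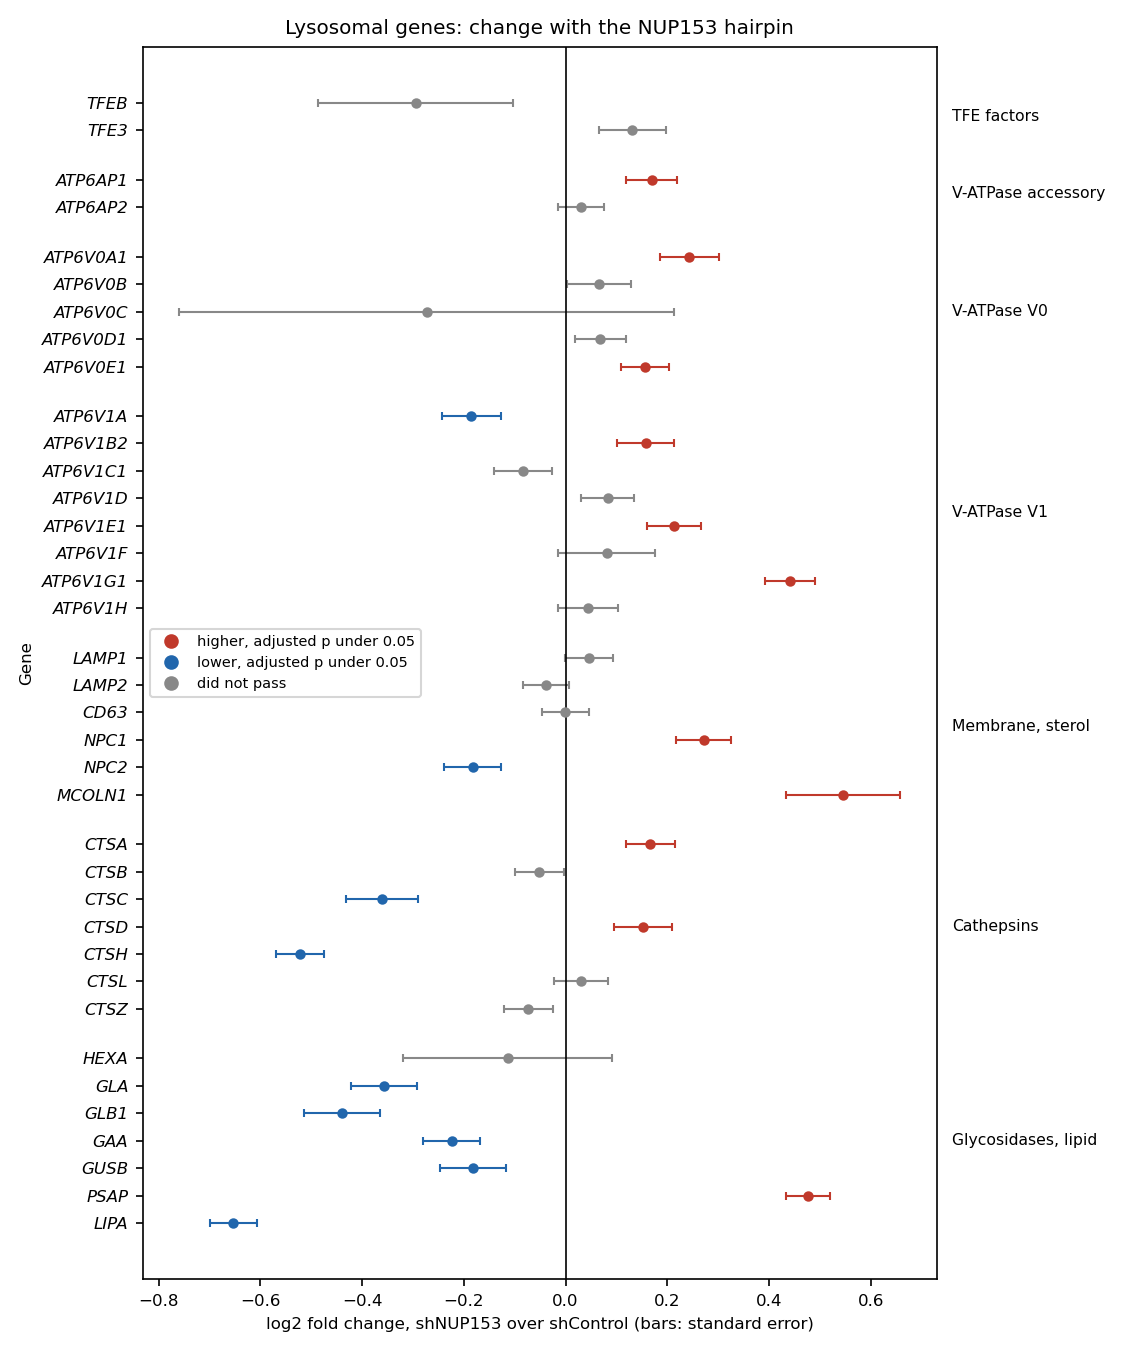
Log2 fold change of shNUP153 over shControl for the 37 genes by role, with bars of 1 standard error from edgeR's fit; red genes were higher and blue genes lower at an adjusted p under 0.05, and grey genes did not pass. Called V-ATPase genes lie mostly right of 0 and called glycosidase and lipid genes mostly left, with PSAP at 0.48 and LIPA at −0.65.

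Of the hydrolase genes, 3 of 14 were higher and 7 lower (21.4% and 50%, beside the same 15.0% and 17.4% of all tested genes and 18.1% and 33% of the abundant ones). Their median was −0.15. Without shNUP153 replicate 1 or replicate 2 the counts were 5 lower and 1 higher. Cathepsin genes accounted for 2 of the falls and 2 of the rises.

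CTSH, a cysteine protease with aminopeptidase activity, fell 1.44-fold. It measured 402 and 436 CPM in shControl and 297 and 286 CPM in shNUP153 (−0.52, SE 0.05, edgeR adjusted p = 4.32e-11), well apart. CTSC, dipeptidyl peptidase 1, which activates serine proteases of immune cells, fell from 43.4 and 43.5 CPM to 32.9 and 34.9 CPM (1.28-fold, −0.36, SE 0.07, adjusted p = 0.00012).

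CTSA, the serine carboxypeptidase that also protects β-galactosidase and neuraminidase, rose from 159 and 165 CPM in shControl to 185 and 179 CPM in shNUP153 (1.12-fold, 0.17, SE 0.05, edgeR adjusted p = 0.00764). Leaving out shNUP153 replicate 1 (0.172) or replicate 2 (0.0615) ended that call. CTSA shares exon with NEURL2 on the opposite strand, 1038 bp (17.7% of its exons), and NEURL2 had at most 11 counts. CTSD, the main aspartic protease, was at 113 and 131 CPM in shControl and 139 and 133 CPM in shNUP153, the nearest libraries of the groups lying side by side (1.11-fold, 0.15, SE 0.06, adjusted p = 0.0365). The call for CTSD was lost with DESeq2 (0.115) and without shControl replicate 1 (0.05, adjusted p = 0.531), shNUP153 replicate 1 (0.376) or shNUP153 replicate 2 (0.118). CTSD also shares 41.7% of its exons with AC068580.4 on the same strand, which had 10 to 25 counts.

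CTSB (−0.05, adjusted p = 0.453), CTSL (0.03, adjusted p = 0.712) and CTSZ (−0.07, adjusted p = 0.258), 3 cysteine cathepsins, did not pass. CTSZ passed downward without shControl replicate 1 (−0.14, adjusted p = 0.0152), and CTSB turned to 0.01 with total-count scaling. Summed over the 7 genes, cathepsin levels were 1234 and 1319.7 CPM in shControl and 1172 and 1142 CPM in shNUP153.

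Of the glycosidase and lipid genes, 5 of 7 were lower and 1 higher, where 17.4% of all tested genes and 33% of those in the top 3 abundance bins were lower. LIPA, the acid lipase that frees cholesterol and fatty acids from lipoproteins, had the largest fall of the 37 genes. It stood at 273 and 274 CPM in shControl and at 173 and 175 CPM in shNUP153 (1.57-fold lower, −0.65, SE 0.05, edgeR adjusted p = 1.33e-13). This gap was far wider than the distance between replicates, and among the 37 genes LIPA alone passed under every alternative (adjusted p up to 0.0475). In GENCODE v29 the LIPA gene (GRCh38, chr10:89213569-89414557) overlaps exons of the interferon-induced gene IFIT2 on the opposite strand by 65 bp, 1.32% of its exonic length. IFIT2 fell by 1.01 on the log2 scale, from 196 to 97.0 CPM on average. The part of shared reads in LIPA's fall was not tested.

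The 4 glycosidase genes that were called fell by less than LIPA, and HEXA did not pass. GLB1, β-galactosidase, fell from 38.4 and 38.6 CPM in shControl to 29.2 and 27.6 CPM in shNUP153 (1.36-fold, −0.44, SE 0.07, edgeR adjusted p = 1.53e-05). GLA, the α-galactosidase deficient in Fabry disease, fell from 59.1 and 58.2 CPM to 43.8 and 47.9 CPM (1.28-fold, −0.36, SE 0.06, adjusted p = 4.29e-05). In GLB1 and GLA alike the controls lay within 1 CPM of each other and above both knockdown libraries. GAA, the acid α-glucosidase that degrades glycogen, fell from 107 and 119 CPM to 97.0 and 97.0 CPM (1.17-fold, −0.22, SE 0.06, adjusted p = 0.00187; 0.0555 and 0.0531 without shNUP153 replicates 1 and 2). GUSB, β-glucuronidase, fell from 55.3 and 57.6 CPM to 47.7 and 52.0 CPM (1.13-fold, −0.18, SE 0.06, adjusted p = 0.0283). The GUSB call was lost under 6 of 12 alternatives, with adjusted p up to 0.376, among them total-count scaling (0.166), DESeq2 (0.109) and leaving out shControl replicate 2 (0.0917) or either shNUP153 library (0.376 and 0.0546). GUSB has copies in the genome that could share its reads: GUSBP1 had up to 370.0 counts in a library.

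PSAP went against the rest of its group. It codes for prosaposin, which is cut into the saposins that present sphingolipids to their hydrolases. Its level was 511 and 535 CPM in shControl and 745 and 710.2 CPM in shNUP153, a rise of 1.39-fold (0.48, SE 0.04, edgeR adjusted p = 6.9e-11), and no library of either group came near the other group. Per kilobase of exon PSAP was the most abundant of the 37 genes, at 161 CPM per kb in shControl and 225 in shNUP153. With PSAP included, the summed level of the 7 genes was 1048 and 1086 CPM in shControl and 1139 and 1113 CPM in shNUP153.

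Set beside the promoter search, the 8 genes with TCACGTG in the window had a median log2 fold change of 0.11 (from −0.22 for GAA to 0.55 for MCOLN1), and 7 of the 8 values were above 0. Of these 8, ATP6V1G1, MCOLN1, CTSA and CTSD were called higher and GAA lower. The calls for CTSA, CTSD and GAA depended on the setting, as given above. The 20 genes whose window lacked the motif had a median of −0.04 (from −0.65 to 0.27), with 9 above 0. Genes with no window are left out of this split, among them the called genes PSAP, ATP6V0E1, ATP6V1B2 and ATP6V1A. The change of all tested genes that hold the motif was not examined. This is a description of 28 genes, and the difference was not tested.

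**Figure D3:**
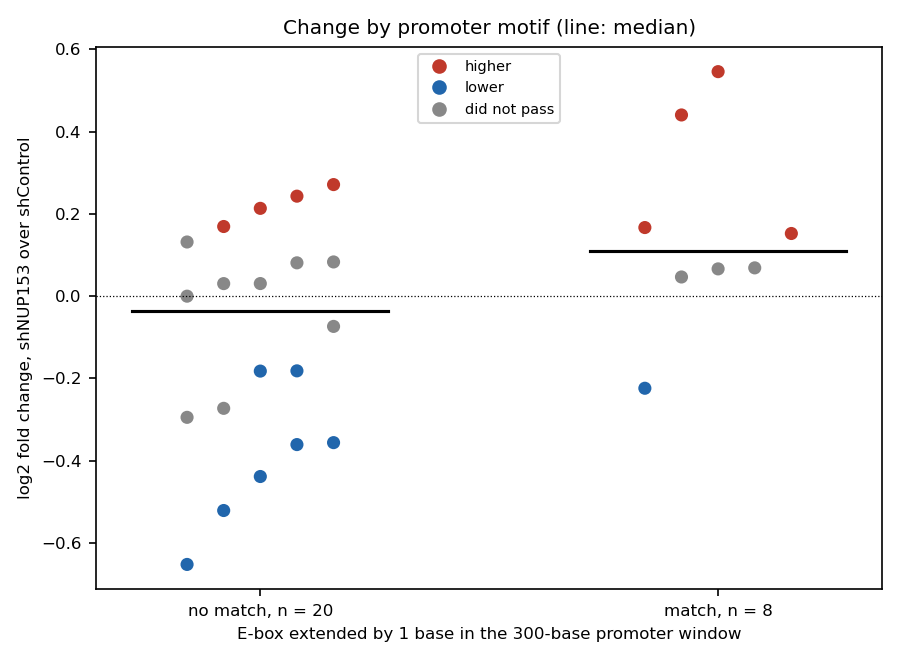
Log2 fold change (shNUP153 over shControl) of the 28 genes with a promoter window, split by whether the window holds the extended E-box on either strand; each point is a gene, coloured by its call, and lines are medians. The 8 genes with a match have a median of 0.11 and the 20 without a match a median of −0.04, and the ranges overlap.

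Other lysosome and autophagy genes, from lists that share no gene with the 37, were counted in the same fit. Of 125 tested, 31 were higher and 18 lower (24.8% and 14.4%, against 15.0% and 17.4% of all tested genes). Further V-ATPase isoforms gave 2 higher and 0 lower of 7 tested (28.6% and 0%, against 15.0% and 17.4% of all tested genes). The median of the 7 was 0.04, 3 values were negative, and 4 more isoforms were not tested. ATP6V0E2 was at 5.44 CPM in shControl and 7.96 in shNUP153 (0.54, edgeR adjusted p = 0.00346). Without shNUP153 replicate 2 it was at 0.44, and its call was lost. ATP6V1B1 was at 2.75 and 2.78 CPM in shControl and 4.51 and 3.50 CPM in shNUP153 (0.54, edgeR adjusted p = 0.0359). The call for ATP6V1B1 was lost with DESeq2 and without either shControl library or shNUP153 replicate 1 (adjusted p up to 0.382).

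Of 19 other lysosomal membrane genes tested, 7 were higher and 5 lower (36.8% and 26.3%, against 15.0% and 17.4% of all tested genes). In the top 3 abundance bins, 18.1% of all genes were higher and 33% lower. A further 5 of the 24 genes listed had too few counts to be tested. OSTM1, the partner of the chloride transporter CLCN7, rose by 0.47 (adjusted p = 2.93e-06), the calcium channel gene TPCN1 by 0.29 and LAPTM4A by 0.21 (adjusted p = 0.000858). LAMP3, known to be induced by interferon, fell most, from 50.8 and 57.6 CPM in shControl to 26.7 and 27.9 CPM in shNUP153 (1.99-fold, −0.99, SE 0.07, edgeR adjusted p = 4.09e-13). The transporter gene ABCA2 fell by 0.48 and LAPTM4B by 0.17. The call for LAPTM4A was lost without shNUP153 replicate 2, and that for LAPTM4B with total-count scaling and without shNUP153 replicate 1.

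The 39 other hydrolases and their helpers gave 5 higher and 7 lower. These shares (12.8% and 17.9%) lay near those of all tested genes (15.0% and 17.4%). IDS, which removes sulphate from glycosaminoglycans, rose by 0.35 (adjusted p = 1.41e-06), the sialidase gene NEU1 by 0.37 (adjusted p = 3.34e-06) and the progranulin gene GRN by 0.31 (adjusted p = 1.15e-05). Among those lower, the thioesterase gene PPT1 fell by 0.26 (adjusted p = 0.000139). Of 19 sorting and fusion genes 2 were higher and 2 lower. That is 10.5% in each direction, below the 15.0% and 17.4% of all tested genes. The 2 higher were VPS18 (0.41) and the mannose 6-phosphate receptor gene IGF2R (0.13, edgeR adjusted p = 0.03). The 2 lower were the sorting receptor gene SORT1 (−0.44) and VPS41 (−0.24). IGF2R was not called under 6 of 12 alternatives (adjusted p up to 0.32), DESeq2 and leaving out either shNUP153 library or shControl replicate 2 among them.

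For mTORC1 and its lysosomal anchors, 5 of 20 were higher and 3 lower (25% and 15%, where 15.0% and 17.4% of all tested genes were), so the share lower lay near that of all genes. FNIP1, a partner of folliculin in the control of TFEB and TFE3, rose by 0.41 (16.5 and 14.9 CPM to 21.2 and 20.3 CPM, edgeR adjusted p = 0.00076), the Ragulator gene LAMTOR1 by 0.20 and the mTORC1 inhibitor gene TSC2 by 0.16. MLST8, an mTOR subunit, fell by 0.31, LAMTOR4 by 0.28 and the calcineurin gene PPP3CB by 0.25. Calls for LAMTOR1 and LAMTOR4 were lost without shNUP153 replicate 1 (adjusted p up to 0.177 and 0.129) and that for PPP3CB without shNUP153 replicate 2. TSC2 was not called with DESeq2, with no filter on low counts, or without shControl replicate 1 or an shNUP153 library (adjusted p up to 0.277).

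Autophagy genes were higher in 10 of 20 cases (50%, against 15.0% of all tested genes) and lower in 1 (5%, against 17.4%), with a median of 0.19. ULK1, the kinase that starts autophagy, rose from 24.2 and 24.9 CPM in shControl to 43.2 and 39.0 CPM in shNUP153 (1.67-fold, 0.74, SE 0.08, edgeR adjusted p = 1.4e-09). MAP1LC3B codes for a protein that marks autophagosomes once it is lipidated. Its RNA rose from 85.9 and 84.9 CPM to 137 and 126 CPM (1.54-fold, 0.63, SE 0.05, edgeR adjusted p = 2.11e-11). The cargo receptor gene SQSTM1 rose from 461 and 469 CPM to 646 and 625 CPM (1.37-fold, 0.45, SE 0.04, edgeR adjusted p = 1.96e-10). RNA levels do not show whether autophagy itself changed. The conjugation enzyme gene ATG7 was the 1 that fell (−0.24, adjusted p = 0.0182), a call lost with total-count scaling, with DESeq2, and on leaving out shControl replicate 2, shNUP153 replicate 1 or shNUP153 replicate 2 (adjusted p up to 0.232). Without shNUP153 replicate 1, 6 autophagy genes were higher.

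**Figure D4:**
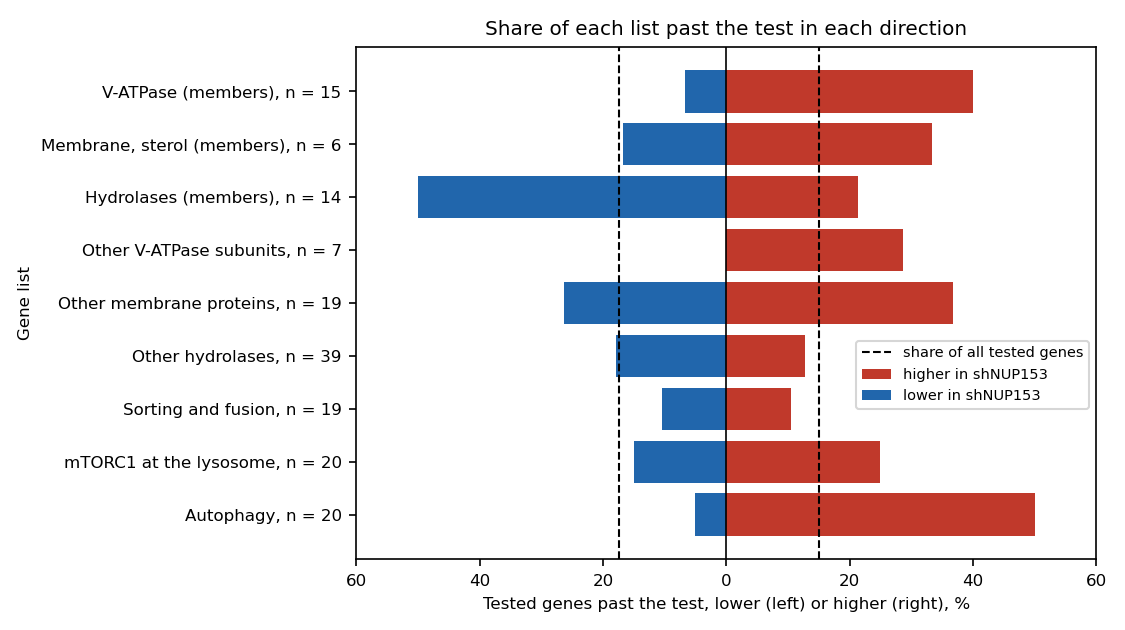
Share of the tested genes of each list called higher (red, right) or lower (blue, left) in shNUP153, in percent, with dashed lines at the shares of all tested genes (15.0% higher, 17.4% lower). V-ATPase and autophagy genes reach 40% and 50% higher and the 14 hydrolase genes 50% lower. In the top 3 abundance bins, however, 33% of all genes were lower. Fewer V-ATPase genes were higher when an shNUP153 library was left out, as were fewer of all tested genes.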

How the data were processed

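RNA-seq of 4 libraries was used as deposited: whole-number counts per gene, treated as raw counts although the authors' table is named FPKM, since its totals differ between libraries. A log2 ratio per gene, deposited by the authors beside the counts, was not used. Per the submitters' processing notes the tools named are Bowtie2, deepTools, DESeq2 and kallisto, and the build is hg19. The tool behind the counts, its annotation and its strand setting are unstated in these sources.

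Genes were kept by filterByExpr (minimum count 10, minimum total 15), scaled by TMM and tested with edgeR 4.0.16 in R 4.3.3 (quasi-likelihood, shNUP153 against shControl, two-sided, Benjamini-Hochberg over 16817 genes, threshold 0.05, no replicate block). The SE was derived from the fold change and F. With 2 libraries a group, 2 residual degrees of freedom remain. DESeq2 1.42.0 and limma 3.58.1 were alternatives. The procedure was tested on simulated counts for all 16817 genes, and recovered 34% of changes of 1.2-fold and 64% of changes of 1.5-fold. A gene that did not pass is therefore not shown to be unchanged. Replicates differed by more than sampling noise (chi-square per gene of 3.57 for shControl and 3.09 for shNUP153, about 1 from sampling alone). Exon lengths and overlaps are from GENCODE v29 (GRCh38), matched by gene ID, and promoters from RefSeq (GRCh38.p14), matched by symbol. An exon length joins all annotated exons of a gene and can exceed the length of any of its RNAs. Rankings per kilobase depend on it.

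The genes and lists were chosen with earlier results of these data known. All 37 genes are described. Of the other lists, up to 3 called genes a direction with the smallest p are named, except some that are not reported here. No protein was printed, as none was at hand. Genes that share exons with the 37, such as IFIT2, were named after their values were seen.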

Additional observations from a re-analysis of the deposited data

How the results depend on the processing

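Directions of the 20 called genes were the same under all 12 alternatives. Over all tested genes 5448 were called, 3556 with DESeq2 and 485 by limma without a variance trend (prior count 0.5), and 3072 to 5201 when a library was left out. Limma without a trend called 0 of the 37 lysosomal genes higher and 1 lower (V-ATPase genes 0 and 0, hydrolases 0 and 1, autophagy genes 2 and 0). The cause was not tested. Leaving out a library gave 4 to 10 genes higher and 5 to 10 lower: V-ATPase genes 1 to 6 and 0 to 1, hydrolases 1 to 3 and 5 to 8, autophagy genes 6 to 11 and 0 to 1. Autophagy genes lower were 0 with total-count scaling and with DESeq2, and V-ATPase genes lower were 0 with total-count scaling. With total-count scaling 62.8% of all calls were higher, against 46.3%, the median of all tested genes moved from 0.0054 to 0.07, and 14 of the 37 genes were higher and 6 lower. The median of the 37 was 0.09393 with total-count scaling, 0.01948 with no filter, 0.07131 at a mean of 5 CPM or more (34 of the 37 tested) and 0.01835 to 0.04699 with a library left out. Genes that did not pass and changed sign were LAMP2 (0.02504), CTSB (0.01187) and CD63 (0.06334) with total-count scaling. With a library left out, LAMP1 ran from −0.02004 to 0.1076, HEXA from −0.2633 to 0.02295, ATP6V1H from −0.03583 to 0.1132 and CD63 from −0.06869 to 0.06308. CD63 also turned to 0.000463 with DESeq2 size factors in edgeR, 0.000592 with DESeq2, 0.001936 in limma without a trend, 0.001935 in limma-trend, 0.02596 at a mean of 5 CPM or more and 0.00169 with the replicate block. With the replicate number as a replicate block 5465 genes were called, and 11 and 9 of the 37, the counts of the main analysis. Deviations of same-numbered libraries correlated at −0.0036, and the labels do not say that a number marks a shared culture or day, so no pairing was assumed. Low counts limit ATP6V0C, HEXA and TFEB, at 10 to 100 counts a library. Groups for V-ATPase, hydrolase and autophagy genes were put through the alternatives after the data were seen.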
